A study of Mus musculus with 12 samples.

Results

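The genes described here are the 6 hepatic fatty acid desaturases and long-chain elongases Fads1, Fads2, Elovl1, Elovl2, Elovl3 and Elovl5. They were taken by name from the transcript table of the livers, where they occupied 26 transcript entries, and the values of each gene were summed within each liver. They are 6 of the 22170 gene names of the table, and all 6 passed the filter on low values. In HFD livers, Fads1, Elovl2 and Elovl3 fell and Elovl1 rose relative to ND livers. In CLE livers, Elovl3 was higher than in HFD livers (2.28 times the mean), and no member passed the test in LU livers against HFD livers.

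Mammals make long polyunsaturated fatty acids from the essential dietary fatty acids linoleic and alpha-linolenic acid by alternating desaturation and elongation in the endoplasmic reticulum, and the liver is a main site of this pathway. Fads2 encodes the desaturase of the first step and Fads1 the desaturase that acts after the first elongation, so that arachidonic and eicosapentaenoic acid are formed. Elovl5 encodes the elongase of the shorter polyunsaturated intermediates, and Elovl2 that of the longer ones on the way to docosahexaenoic acid. Elovl1 and Elovl3 encode elongases of saturated and monounsaturated very long chains, which are used in sphingolipids and neutral lipids.

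The livers came from 12 male C57BL/6J mice aged 21 weeks, 3 in each group, that were housed singly and fed their diets for 16 weeks. Per the methods, all mice were fasted for 12 h before the livers were taken. The ND group received the normal diet and the HFD group the high-fat diet. The CLE group received the same high-fat diet with 1.5% by weight of an ethanol extract of chrysanthemum leaves, and the LU group the high-fat diet with 0.003% by weight of luteolin, a flavone found in those leaves. The high-fat diet was thus common to the HFD, CLE and LU groups, the sequenced mice were described as representative of larger groups without a stated rule of choice, and each comparison with HFD used the same 3 HFD mice. Expression was deposited as FPKM (fragment numbers scaled to transcript length and library size), which leaves the reads behind each value unknown and allows no counting error. The test was limma's moderated test of log2(FPKM + 1), fitted to the 12 livers together, with adjusted p-values (Benjamini-Hochberg) over the 11566 genes whose mean reached 0.5 FPKM, and "called" means an adjusted p below 0.05. In whole liver, fewer cells of a type and less RNA per cell cannot be told apart.

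Across all genes, the libraries differed in several respects. The summed FPKM of named genes ran from 1.70e+06 in ND mouse 4 to 5.58e+06 in CLE mouse 4. The largest single transcript held 8.18e+05 FPKM in ND mouse 4 and 3.5e+06 in CLE mouse 4. The part of these totals in the values of the members was not tested. The median log2 fold change of all genes in HFD against ND was 0.11 with the deposited values and -0.01 with median-of-ratios scaling, which turned 1156 higher and 244 lower genes into 620 higher and 504 lower. How far genes departed from their mean over the livers was related to GC content by Spearman's correlation (11413 genes, which are not independent). It ran from -0.374 to -0.141 for ND and HFD livers and from 0.16 to 0.479 for CLE and LU livers, so that GC content and supplementation cannot be told apart. Of the hepatocyte markers, albumin was listed at 0 in 11 of the 12 livers, while the summed level of the list was 15910 to 16800 FPKM in ND livers, 15400 to 17780 in HFD livers, 15770 to 20000 in CLE livers and 17580 to 35740 in LU livers, the last including 19853 FPKM of albumin in LU mouse 3.

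The values of Elovl1 were higher and those of the other 5 members lower in HFD than in ND livers, without overlap. No promoter of Fads1 or Elovl3 was found, so those of the other 4 members are shown. They are RefSeq sequences of mouse build GRCm38.p6, 250 bases before to 50 bases after the transcription start, given 5′ to 3′ in the direction of the gene. Elovl1 lies at chr4:118427843-118428142 (plus strand), Elovl2 at chr13:41220354-41220653 (minus strand), Elovl5 at chr9:77917115-77917414 (plus strand) and Fads2 at chr19:10101454-10101753 (minus strand). Capitals mark matches, on either strand, to 5 motifs, namely the E-box CACGTG, the cyclic AMP response element TGACGTCA, the CCAAT box, the GC box GGGCGG and the sterol response element TCACNCCAC.
Elovl1: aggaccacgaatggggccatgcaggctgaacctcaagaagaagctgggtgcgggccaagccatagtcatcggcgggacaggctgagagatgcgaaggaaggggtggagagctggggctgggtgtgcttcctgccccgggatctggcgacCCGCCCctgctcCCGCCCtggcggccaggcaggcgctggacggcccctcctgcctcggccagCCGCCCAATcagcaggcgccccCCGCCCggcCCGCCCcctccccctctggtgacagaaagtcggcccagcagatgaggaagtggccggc
Elovl2: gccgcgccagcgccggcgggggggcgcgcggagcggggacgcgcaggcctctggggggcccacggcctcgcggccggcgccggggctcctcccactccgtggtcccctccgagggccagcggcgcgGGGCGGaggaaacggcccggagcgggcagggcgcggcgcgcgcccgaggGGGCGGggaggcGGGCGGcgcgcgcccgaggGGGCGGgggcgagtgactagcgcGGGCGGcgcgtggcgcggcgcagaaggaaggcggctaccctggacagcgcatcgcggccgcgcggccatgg
Elovl5: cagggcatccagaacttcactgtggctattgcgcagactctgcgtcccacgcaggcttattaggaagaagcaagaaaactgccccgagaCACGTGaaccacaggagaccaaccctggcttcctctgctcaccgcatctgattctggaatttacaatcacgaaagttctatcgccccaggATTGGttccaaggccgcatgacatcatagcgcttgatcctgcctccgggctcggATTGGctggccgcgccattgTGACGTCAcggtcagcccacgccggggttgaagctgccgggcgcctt
Fads2: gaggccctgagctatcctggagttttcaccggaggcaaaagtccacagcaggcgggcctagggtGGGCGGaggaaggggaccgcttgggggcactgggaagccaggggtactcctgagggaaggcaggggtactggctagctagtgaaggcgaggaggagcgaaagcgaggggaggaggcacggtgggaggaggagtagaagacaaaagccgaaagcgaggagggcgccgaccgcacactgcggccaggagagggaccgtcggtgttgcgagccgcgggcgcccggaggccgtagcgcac
For Elovl1 and Elovl2 the table holds 2 promoters each, and the one nearest to the annotated start of the gene is shown and counted. Elovl1 and Elovl2 held 5 GC boxes each in these windows, Fads2 held 1 and Elovl5 none. Elovl5 held 1 E-box that began 161 bases before the start, 1 cyclic AMP response element and 2 CCAAT boxes, and Elovl1 held 1 CCAAT box, which overlaps a GC box. No match to the sterol response element was found in these 4 windows. The other promoter of Elovl1 (chr4:118429451-118429750) held 2 GC boxes, the other one of Elovl2 (chr13:41220113-41220412), which overlaps the window shown, held none, and neither held a match to the other 4 motifs. Of the 32851 promoters of the same length, 35.7% held the GC box, 37.4% the CCAAT box, 7.15% the E-box, 1.79% the cyclic AMP response element and 1.24% the sterol response element. The GC content of the promoters was 84.7% for Elovl2, 70.7% for Elovl1, 67.0% for Fads2 and 57.7% for Elovl5.

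The members differed widely in level. On the FPKM scale, which accounts for transcript length, the mean over the 12 livers was 544 for Elovl5, 457 for Fads2, 298 for Elovl2, 270 for Elovl3, 114 for Fads1 and 21.6 for Elovl1. The ranges over the 12 livers of neighbouring genes in this order overlapped, except that the highest Elovl1 value (28.7 FPKM) lay below the lowest Fads1 value (58.3 FPKM). Elovl5 exceeded 98.7% of the tested genes in mean level and Elovl1 exceeded 74.2%. The order was not the same in each group: Elovl2 was above Elovl3 in the ND, HFD and LU means and below it in the CLE mean.

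Between HFD and ND livers, 4 of the 6 members were called (3 lower and 1 higher), against 12.1% of all tested genes in either direction and 2.11% called lower. The values of the HFD and ND livers did not overlap for any of the 6 members, 5 of which were lower and 1 higher in HFD, while 36.5% of all tested genes did not overlap. The median log2 fold change was -0.89 over the members and 0.11 over all genes. With median-of-ratios scaling the median of all genes was -0.01 and all 6 members were called, 5 lower and Elovl1 higher, where 4.36% of all tested genes were called lower.

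**Figure D1:**
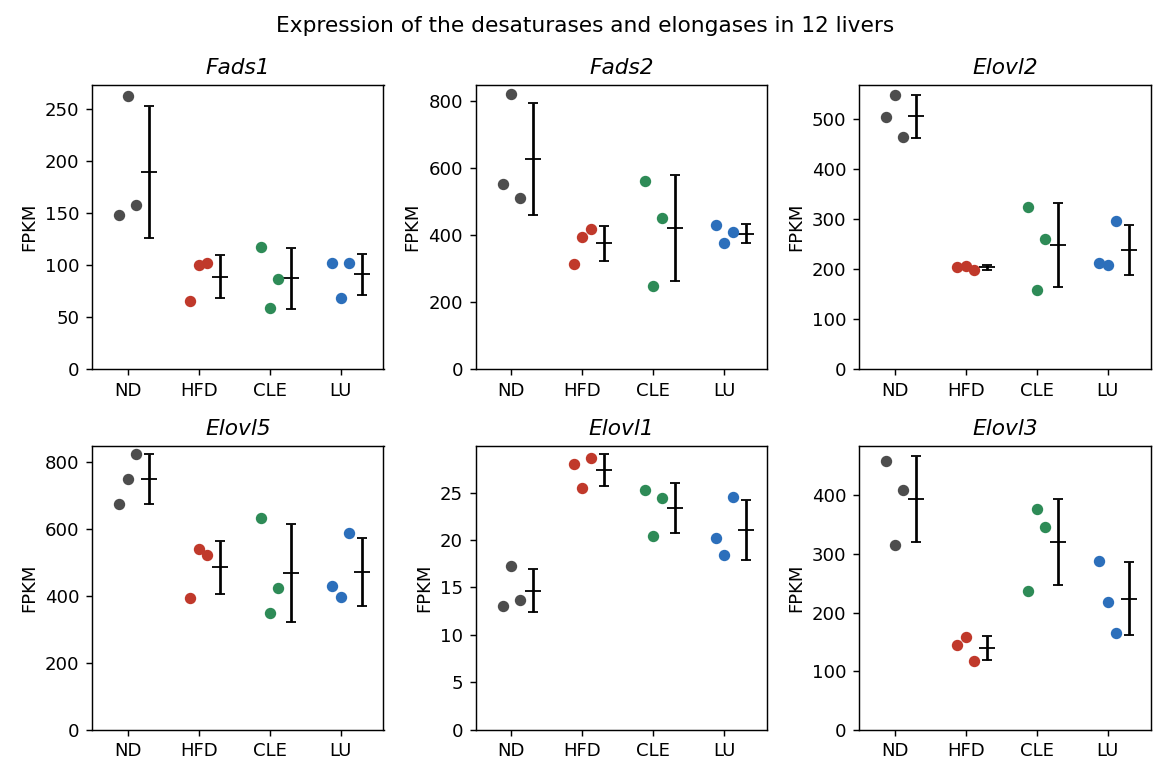
FPKM of each gene in each of the 12 livers (vertical axis, starting at 0) by diet group (horizontal axis), with 1 point per liver and the mean ± SD (n = 3) as a black bar beside it. The 3 ND livers lie above the 3 HFD livers for every gene other than Elovl1, where they lie below, and the Elovl3 points of the CLE livers (237 to 377 FPKM) lie above those of the HFD livers (118 to 158 FPKM).

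Of the desaturases, Fads1 (ENSMUSG00000010663, chromosome 19 of GRCm38, 10182888 to 10196877, plus strand) had 148, 263 and 158 FPKM in ND mice 2, 3 and 4, and 65.2, 99.7 and 102 FPKM in HFD mice 12, 15 and 18. Every HFD liver was below every ND liver, and ND mouse 3 stood well above the other two. The mean went from 190 ± 63.8 to 88.9 ± 20.6 FPKM (SD, n = 3), and the log2 fold change was -1.06 (standard error (SE) 0.28, adjusted p = 0.027, limma). The call was lost without ND mouse 3 (log2 fold change -0.80, adjusted p = 0.090) and without HFD mouse 12 (-0.86, adjusted p = 0.11). With the fold change kept at -1.06, it was also lost when genes of low values stayed in the test (adjusted p = 0.063), with only the transcript of the highest mean for each gene (0.057) and with known transcripts only (0.052). The calls of Elovl1, Elovl2 and Elovl3 in HFD against ND were kept under every alternative run.

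Fads2 (ENSMUSG00000024665, chromosome 19, 10062765 to 10101746, minus strand) lies 81141 bases from Fads1. It had 554, 820 and 510 FPKM in the ND livers and 315, 394 and 417 FPKM in the HFD livers, in the same order of mice. The groups did not overlap, and ND mouse 3 was again the highest. The means were 628 ± 168 and 375 ± 53.5 FPKM (SD, n = 3), and the log2 fold change was -0.72 (95% interval -1.27 to -0.17), which did not pass the test (adjusted p = 0.089, limma). It passed with median-of-ratios scaling (-0.88, adjusted p = 0.048), in the fit of the HFD and ND livers alone (adjusted p = 0.033) and without CLE mouse 4 (adjusted p = 0.019), a mouse that enters through the shared estimate of the spread.

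Of the elongases of polyunsaturated chains, Elovl2 (ENSMUSG00000021364, chromosome 13, 41182381 to 41220405, minus strand) had 504, 548 and 462 FPKM in ND mice 2, 3 and 4, and 204, 206 and 198 FPKM in HFD mice 12, 15 and 18. The 3 HFD livers were nearly equal, and the groups were far apart. The means were 505 ± 42.7 and 203 ± 4.25 FPKM (SD, n = 3), and the log2 fold change was -1.31 (SE 0.22, adjusted p = 0.0023, limma).

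Elovl5 (ENSMUSG00000032349, chromosome 9, 77917364 to 77984519, plus strand) had 676, 750 and 825 FPKM in the ND livers and 394, 541 and 523 FPKM in the HFD livers. Every HFD liver was below every ND liver. The means were 750 ± 74.2 and 486 ± 80.1 FPKM (SD, n = 3), and the log2 fold change was -0.64 (95% interval -1.10 to -0.17), which did not pass the test (adjusted p = 0.074, limma). It passed with median-of-ratios scaling (-0.80, adjusted p = 0.032), in the fit of the HFD and ND livers alone (adjusted p = 0.020) and without CLE mouse 2 or CLE mouse 4 (adjusted p = 0.030 and 0.045).

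Of the elongases of saturated and monounsaturated chains, Elovl3 (ENSMUSG00000038754, chromosome 19, 46131897 to 46135694, plus strand) had 459, 315 and 409 FPKM in ND mice 2, 3 and 4, and 144, 158 and 118 FPKM in HFD mice 12, 15 and 18. The highest HFD liver was well below the lowest ND liver, ND mouse 3. The means were 394 ± 73.2 and 140 ± 20.5 FPKM (SD, n = 3), and the log2 fold change of -1.48 (SE 0.22, adjusted p = 0.0013, limma) was the lowest of the 6. Of the 11566 tested genes, 48 had a log2 fold change as low or lower.

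Elovl1 (ENSMUSG00000006390, chromosome 4, 118428093 to 118432953, plus strand) was the member that rose. It had 13.0, 17.2 and 13.7 FPKM in the ND livers and 28.1, 25.4 and 28.7 FPKM in the HFD livers, with no overlap. The means were 14.7 ± 2.26 and 27.4 ± 1.72 FPKM (SD, n = 3), and the log2 fold change was 0.87 (SE 0.14, adjusted p = 0.0017, limma), or 0.72 with median-of-ratios scaling (adjusted p = 0.0041). Under every scaling tried, Elovl1 was higher and the other 5 members were lower in HFD livers.

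Some markers of other liver cells also differed between HFD and ND livers. In HFD against ND livers, 5 of 6 stellate cell markers (Col3a1, Col1a1, Dcn, Lrat and Pdgfrb) and 2 of 6 Kupffer cell markers (Cd5l and Vsig4) were called higher. In this comparison 12.1% of all tested genes were called in either direction, 1156 higher and 244 lower. With median-of-ratios scaling these became 620 higher and 504 lower, and the markers were tested on the deposited values only. The summed level was 72.8 to 103 FPKM in ND and 129 to 162 FPKM in HFD livers for the stellate list, and 94.1 to 108 and 137 to 205 FPKM for the Kupffer list. Of 5 sinusoidal endothelial markers, Stab2 was called higher, with sums of 63.5 to 74.8 and 80.1 to 84.7 FPKM. Of 2 tested adipocyte markers, Fabp4 was called higher, while Adipoq, Plin1 and Lep, which were not tested, stayed under 0.5 FPKM in every ND and HFD liver. None of 3 tested cholangiocyte markers was called, with sums of 18.4 to 41.3 and 36.3 to 55.0 FPKM. Of 4 tested lymphocyte markers, Cd4 was called lower, with sums of 6.30 to 8.33 and 7.61 to 9.88 FPKM. None of 6 hepatocyte markers was called, but albumin, 1 of the 6, was listed at 0 in every ND and HFD liver and could not be called. The part of these cells in the changes of the members was not tested.

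**Figure D2:**
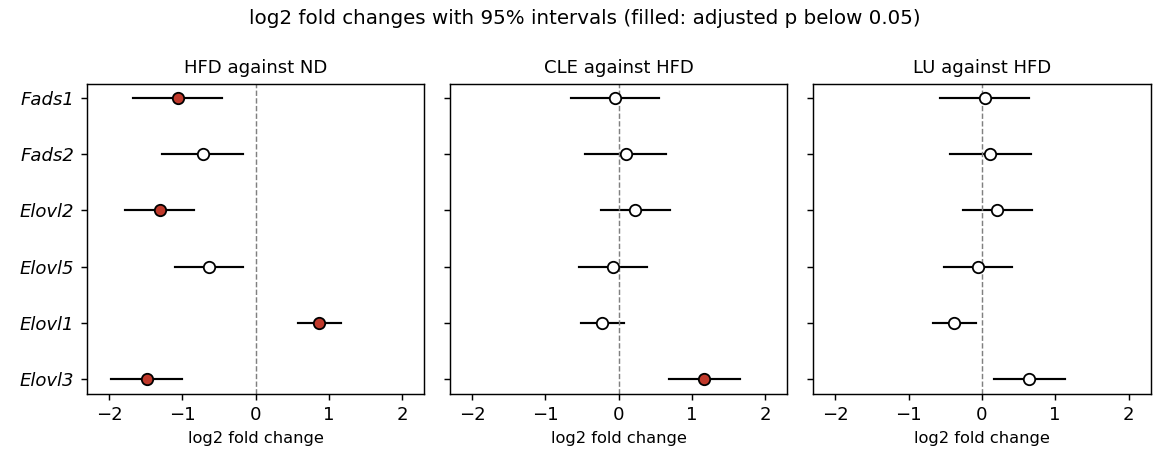
log2 fold change of log2(FPKM + 1) (horizontal axis) of the 6 genes for HFD against ND (left), CLE against HFD (middle) and LU against HFD (right), with 95% intervals from limma as lines and called genes as filled points (n = 3 livers a group). In the first panel 4 points are filled, in the second only Elovl3 at 1.17, and in the third none. The 2 right panels share the HFD livers.

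Between CLE and HFD livers, 1 of the 6 members was called, against 6.03% of all tested genes. Values did not overlap for 2 members, Elovl3 (higher in CLE) and Elovl1 (lower in CLE), while 31.3% of all tested genes did not overlap. The median log2 fold change was 0.02 both over the members and over all genes. Elovl3 had 237, 377 and 346 FPKM in CLE mice 2, 4 and 11, against at most 158 FPKM in the HFD livers. All 3 CLE livers were above all HFD livers, and CLE mice 4 and 11 lay within the range of the ND livers.

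The mean Elovl3 level in CLE livers was 320 ± 73.5 FPKM (SD, n = 3), and the log2 fold change against HFD was 1.17 (SE 0.22, 95% interval 0.69 to 1.65, adjusted p = 0.021, limma). Of all tested genes, 29 rose as much or more. After correction for GC content it was 1.21 (adjusted p = 0.034), and for the reference transcript alone it was 1.46 (adjusted p = 0.031). The call was lost without HFD mouse 12 (adjusted p = 0.060), HFD mouse 15 (0.075), HFD mouse 18 (0.062) or CLE mouse 4 (0.084), with log2 fold changes between 1.04 and 1.37 over all mice left out in turn, and when genes of low values were not filtered out (adjusted p = 0.054). Against ND livers, Elovl3 in CLE livers differed by -0.31 (95% interval -0.80 to 0.17, adjusted p = 0.30, limma).

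The other 5 members were not called in CLE livers against HFD. Elovl1 had 25.3, 20.4 and 24.5 FPKM in CLE mice 2, 4 and 11 (mean 23.4 ± 2.61, SD, n = 3), all below the lowest HFD liver, with a log2 fold change of -0.22 (95% interval -0.52 to 0.07, adjusted p = 0.29, limma). Fads1 had 117, 58.3 and 87.1 FPKM (mean 87.5 ± 29.4), Fads2 had 562, 249 and 450 FPKM (mean 420 ± 159), Elovl2 had 324, 158 and 260 FPKM (mean 247 ± 83.9) and Elovl5 had 634, 350 and 424 FPKM (mean 469 ± 148). For these 4 genes the CLE livers spread around the HFD livers on both sides. The 95% intervals of the log2 fold change were -0.66 to 0.55 for Fads1, -0.46 to 0.65 for Fads2, -0.24 to 0.69 for Elovl2 and -0.55 to 0.38 for Elovl5, so that changes within these bounds could not be resolved with 3 livers a group.

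The CLE livers kept one order across the members. CLE mouse 4 was the lowest CLE liver in Fads1, Fads2, Elovl1, Elovl2 and Elovl5 and the highest in Elovl3, and CLE mouse 2 was the highest in the same 5 genes and the lowest in Elovl3. The library of CLE mouse 4 also had the highest correlation with GC content of all 12 (0.479), and its part in this order was not tested. In the LU group, mouse 3 was the lowest in the same 5 genes. In the ND group, mouse 3 was the highest in Fads1, Fads2, Elovl1 and Elovl2 and the lowest in Elovl3.

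Between LU and HFD livers, 0 of the 6 members were called by limma, against 1.03% of all tested genes. An unadjusted p below 0.05 was found for 2 members (Elovl3 and Elovl1) and for 2346 of the 11566 tested genes. Tukey's test of the FPKM values passed 0 members too. Values did not overlap for 3 members, Elovl3 and Elovl2 (higher in LU) and Elovl1 (lower in LU), while 30.0% of all tested genes did not overlap. The median log2 fold change was 0.08 over the members and -0.02 over all genes. Elovl3 had 289, 218 and 164 FPKM in LU mice 2, 3 and 8 (mean 224 ± 62.3, SD, n = 3), with LU mouse 8 close to the highest HFD liver. Its log2 fold change was 0.64 (95% interval 0.16 to 1.13, adjusted p = 0.15, limma).

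Elovl1 had 20.2, 18.4 and 24.5 FPKM in the LU livers (mean 21.0 ± 3.13), with a log2 fold change of -0.37 (95% interval -0.67 to -0.08, adjusted p = 0.16, limma). Elovl2 had 211, 208 and 296 FPKM (mean 238 ± 50), of which 2 livers lay just above the HFD range, with a log2 fold change of 0.21 (95% interval -0.25 to 0.68). Fads1 had 102, 68.5 and 102 FPKM (mean 91.1 ± 19.5), Fads2 had 430, 375 and 408 FPKM (mean 404 ± 27.5) and Elovl5 had 429, 397 and 588 FPKM (mean 471 ± 102). These 3 genes overlapped the HFD livers, with log2 fold changes between -0.05 and 0.12.

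Set against ND livers, 4 of the 6 members were called in CLE livers (3 lower and 1 higher), where 27.0% of all tested genes were called and 6.08% were called lower. In LU livers 5 members were called (4 lower and 1 higher), where 14.9% of all tested genes were called and 3.78% were called lower. With median-of-ratios scaling, 14.0% of all tested genes were called lower in CLE and 8.92% in LU livers. The members called were then 5 in CLE livers, with Fads2 added (-0.80, adjusted p = 0.039), and 4 in LU livers, where the call of Elovl1 was lost (0.37, adjusted p = 0.063). The log2 fold change of Elovl2 was -1.08 in CLE and -1.10 in LU livers (adjusted p = 0.0061 and 0.0093, limma). Fads1 was at -1.11 and -1.03 (adjusted p = 0.015 and 0.030), and Elovl5 at -0.72 and -0.69 (adjusted p = 0.028 and 0.049). Elovl1 was at 0.64 and 0.49 (adjusted p = 0.0076 and 0.031). Elovl3 was called in LU livers (-0.84, adjusted p = 0.029), and Fads2 in neither (-0.63 and -0.60, adjusted p = 0.083 and 0.12).

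Some cell-type markers also differed from ND livers in the supplemented groups, where 27.0% (CLE) and 14.9% (LU) of all tested genes were called. Of all tested genes, 2416 were called higher and 703 lower in CLE livers, and 1290 higher and 437 lower in LU livers. With median-of-ratios scaling these became 1219 higher and 1618 lower in CLE, and 709 higher and 1032 lower in LU livers. The stellate markers Col1a1, Col3a1, Dcn and Pdgfrb were called higher both in CLE and in LU livers, with summed levels of the list of 127 to 202 and 128 to 171 FPKM. Clec4g and Stab2 of the 5 endothelial markers were higher in both groups, and Cd5l and Clec4f of the 6 Kupffer markers in CLE livers. Cps1, a urea cycle gene and hepatocyte marker, was lower in both (-1.003 and -0.91, adjusted p = 0.0044 and 0.011, limma). Of the 2 tested adipocyte markers, Fabp4 was higher in both groups and Cidec in CLE livers, and of the 3 tested cholangiocyte markers Sox9 was higher in CLE livers. None of 4 tested lymphocyte markers was called in either group. Of the adipocyte markers too low to be tested, Lep was listed at 0 in every ND, HFD and CLE liver and at 0.176, 0.139 and 0.187 FPKM in LU mice 2, 3 and 8. Adipoq was at most 0.145 FPKM in ND, HFD and CLE livers and between 0.4999 and 0.758 FPKM in these LU livers. In CLE against HFD livers 1 marker was called, Apoa1 of the hepatocytes (0.84, adjusted p = 0.037), and in LU against HFD livers none. The part of these cells in the values of the members was not tested.

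The calls of the members against ND rested on single mice in part. For CLE against ND, 2 members remained called without ND mouse 3 or CLE mouse 4 (Elovl1 and Elovl2 both times). For LU against ND, between 1 and 3 members remained called when any ND or LU mouse was left out, and Elovl2 was among them each time. The Elovl1 calls against ND were lost after correction for GC content (0.38 and 0.29, adjusted p = 0.065 and 0.17).

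CLE and LU livers were compared directly for the leaf extract against its constituent, given at the stated shares of the diet. By limma, 0 of the 6 members were called, against 0.00865% of all tested genes (1 gene), while 1 member and 508 genes had an unadjusted p below 0.05. That member was Elovl3, 1.43 times higher in the CLE mean, with a log2 difference of 0.52 (95% interval 0.04 to 1.008, adjusted p = 0.97). By Tukey's test 0 members passed. The difference between the effects of CLE and LU on Elovl3 was therefore not shown, and for the other 5 members the log2 difference lay between -0.09 and 0.15.

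Among all 4 groups, the moderated F test of limma called 4 members, Elovl3 (adjusted p = 0.0044), Elovl2 (0.0060), Elovl1 (0.0063) and Fads1 (0.028), against 24.4% of all tested genes. Elovl5 (adjusted p = 0.058) and Fads2 (0.13) were not called. The F statistic was also tested gene by gene with an exact permutation test over the 15400 ways to split the 12 livers into 4 groups, which gave p = 0.0014 for Elovl1, 0.0034 for Elovl3, 0.012 for Elovl2, 0.024 for Fads1, 0.066 for Elovl5 and 0.15 for Fads2. The smallest p that this test can give is 6.494e-05, and an exact test of 3 livers against 3 cannot go below 0.1.

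Ratios within a liver describe the balance of successive steps and do not depend on the scaling of the library. The Fads2 to Fads1 ratio was 3.73, 3.12 and 3.23 in ND mice 2, 3 and 4 and 4.83, 3.95 and 4.09 in HFD mice 12, 15 and 18. It was 4.80, 4.26 and 5.17 in CLE mice 2, 4 and 11 and 4.20, 5.47 and 3.99 in LU mice 2, 3 and 8. All 9 livers of the high-fat diets had a higher ratio than the 3 ND livers when every Fads2 transcript was summed. Without the assembled Fads2 transcripts that overlap the gene Fads3, the ratio was 2.79 to 3.31 in ND and 3.55 to 4.22 in HFD livers, and CLE mouse 4 (3.25) fell within the ND range. With the reference Fads2 transcript alone it was 2.15 to 2.54 in ND and 2.80 to 3.19 in HFD livers, while CLE mouse 4 (1.995) lay below the ND livers, LU mouse 2 (2.52) within their range and LU mouse 8 (2.54) at its upper end. The HFD and ND livers were thus separated by all 3 sums, the LU and ND livers by the first 2, and the CLE and ND livers only by the sum of all transcripts. The Elovl5 to Elovl2 ratio was 1.34 to 1.78 in ND livers, 1.93 to 2.64 in HFD, 1.63 to 2.21 in CLE and 1.91 to 2.03 in LU livers, so that the CLE livers overlapped the ND livers and the others did not.

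The values of a gene are sums over reference transcripts and transcripts assembled from the reads, which Cufflinks shares out by estimation. Fads1 had 1 transcript, Elovl2 and Elovl3 had 2 each, Elovl5 and Fads2 had 6 each and Elovl1 had 9. For Elovl2 the main transcript held at least 98.6% of the value in every liver. For Elovl3 the reference transcript held 46.7% to 47.3% in HFD livers and 48.7% to 70.8% in CLE livers, the rest being 1 assembled transcript. For Elovl5 the main transcript held at least 89.9% in every liver other than CLE mouse 4, where it held 54.2% and an assembled transcript 45.8%. For Elovl1 the largest transcript held 55.8% to 65.8% in ND and HFD livers and 37.5% to 57.1% in CLE and LU livers.

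The makeup of Fads2 differed between the supplemented livers and the others. The reference transcript held 66.0% to 71.3% of the Fads2 value in the ND and HFD livers, and 46.8% to 65.4% in the CLE and LU livers, with no overlap. The assembled transcript 1 held 2.85% to 4.92% in ND and HFD livers and 7.59% to 19.8% in CLE and LU livers, with CLE mouse 4 the highest. The assembled transcript 2 held 3.74% to 6.62% and 0.779% to 2.73%, the other way round. Of the 5 assembled Fads2 transcripts, 4 reach down to base 10050569 of chromosome 19 at their 3′ end and so run into the neighbouring gene Fads3 on the opposite strand (10041569 to 10060110). Where strand is not used in counting, which the sources used here do not state, reads of the overlap cannot be assigned to one gene. The same split of the libraries by GC content goes with these shares, and its part was not tested.

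**Figure D3:**
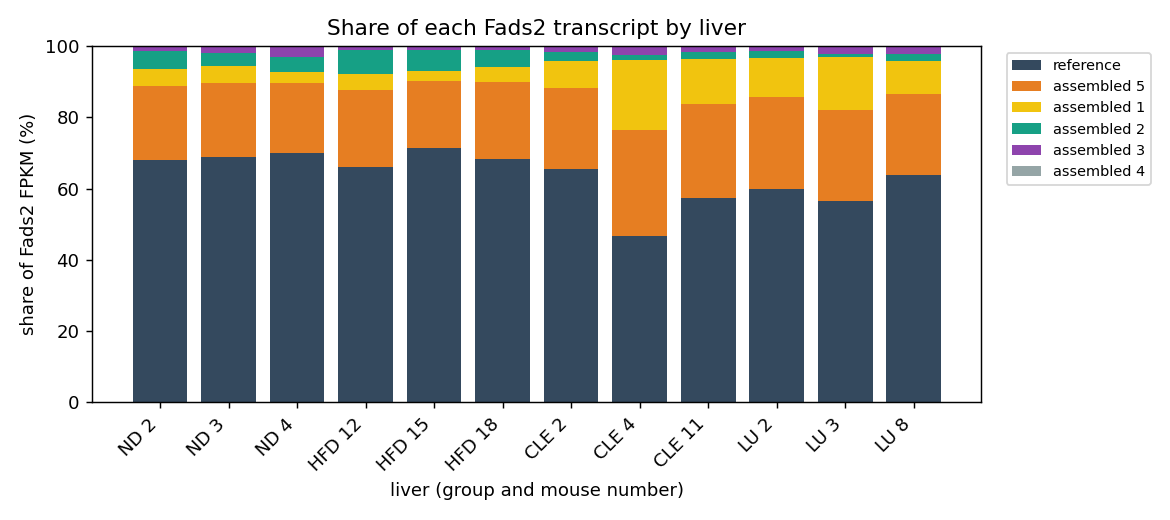
Share of the Fads2 FPKM (vertical axis, percent) held by the reference transcript and each of 5 assembled transcripts in each liver (horizontal axis, group and mouse number), as stacked bars that add up to 100%. The dark segment of the reference transcript is shorter in the CLE and LU livers (46.8% to 65.4%) than in the ND and HFD livers (66.0% to 71.3%), and the yellow segment of assembled transcript 1 is longer.

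Other genes that overlap the members were low. Cdc20 shares bases with the end of Elovl1 on the opposite strand (reference transcript mean 1.15 FPKM over the 12 livers), and Pitx3 with the end of Elovl3 (assembled transcript mean 0.856 FPKM). The transcripts of Elovl3 and Elovl1 had mean levels of 270 and 21.6 FPKM. The Pitx3 transcript had 2.24, 1.49 and 2.51 FPKM in the ND, 0.435, 0.604 and 0.510 in the HFD and 0.577, 0.514 and 0.568 in the CLE livers. The Cdc20 transcript had 0.171, 0.270 and 9.48e-05 FPKM in the ND, 0.878, 3.09 and 1.88 in the HFD and 2.63, 0.630 and 1.24 in the CLE livers. The part of these overlaps in the values of Elovl3 and Elovl1 was not tested.

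Genes that shared a pattern with the members over the 12 livers were named by Pearson's r of log2(FPKM + 1), as a description. For Elovl1 these were Tcn2 (r = 0.975), Cers6 (0.973) and Mid1ip1 (0.97). Cers6, a ceramide synthase, had 2.21 ± 0.512 FPKM in ND, 6.77 ± 0.489 in HFD, 5.13 ± 1.05 in CLE and 4.88 ± 0.491 in LU livers (SD, n = 3). For Elovl2 they were Arsg (0.973), Paqr9 (0.97) and Acsl5 (0.948), and for Fads1 Pglyrp2 (0.929), Idi1 (0.924) and Acsl5 (0.923). For Elovl3 they were Apoa5 (0.879), Ephx2 (0.87) and Gstp1 (0.868). The livers of a group share their diet, so the 12 points are not independent.

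Among the other desaturases and elongases, 6 of the 11 listed genes were tested. In HFD against ND livers, Fads3 was called lower (6.49 ± 2.17 to 2.39 ± 0.47 FPKM, SD, n = 3, log2 fold change -1.11, adjusted p = 0.0039, limma) and Scd2, a stearoyl-CoA desaturase, higher (0.56, adjusted p = 0.035). In CLE against HFD livers Fads3 was higher (5.00 ± 0.0089 FPKM, log2 fold change 0.84, adjusted p = 0.037), and in LU against HFD livers none was called. Fads3 shares bases with the assembled Fads2 transcripts above. Of the elongation cycle partners, which reduce and dehydrate the intermediates, 2 of 6 were called in HFD against ND, Hacd2 higher (0.49, adjusted p = 0.034) and Hacd3 lower (-0.40, adjusted p = 0.047), and none in the other 2 comparisons.

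Of the 5 tested electron donors, Cyb5a, the microsomal cytochrome b5 gene, was higher in HFD against ND livers (0.68, adjusted p = 0.030, limma). Cyb5b, the gene of the mitochondrial form, was lower in CLE against HFD (-0.81, adjusted p = 0.025) and in LU against HFD (-0.78, adjusted p = 0.045), and Cyb5r4, a cytochrome b5 reductase gene, was lower in CLE against HFD (-0.44, adjusted p = 0.045). Of 4 tested long-chain acyl-CoA synthetases, which activate fatty acids, Acsl1 and Acsl5 were lower in HFD against ND (-0.76 each, adjusted p = 0.0040 and 0.0042). Of 9 peroxisomal enzymes of chain shortening, Abcd3, a fatty acid transporter gene, was lower in HFD against ND (-0.55, adjusted p = 0.017) and Acaa1a, a thiolase gene, higher in CLE against HFD (0.66, adjusted p = 0.049). None of 4 genes of polyunsaturated acyl transfer to phospholipids was called in the 3 comparisons.

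Of 10 transcriptional regulators, 1 was called in HFD against ND livers. This was Srebf1, which encodes a sterol regulatory element binding protein that drives lipogenic and desaturase genes. It had 10.99, 14.1 and 14.5 FPKM in ND mice 2, 3 and 4 and 46.9, 40.1 and 50.4 FPKM in HFD mice 12, 15 and 18, and the log2 fold change was 1.72 (SE 0.36, adjusted p = 0.0089, limma). In the same comparison Elovl1 was called higher and Fads1, Elovl2 and Elovl3 were called lower. The part of Srebf1 in the values of the members was not tested. Srebf1 had 39.2, 51.1 and 31.9 FPKM in the CLE livers and 42.03, 12.6 and 46.7 FPKM in the LU livers. LU mouse 3 was at the ND level, and neither group was called against HFD. Of 6 genes of fatty acid synthesis, Acacb was lower in HFD against ND (-1.81, adjusted p = 0.0011), and none was called in CLE or LU against HFD. Over these lists the share of called genes is to be read against the 12.1%, 6.03% and 1.03% of all genes in the 3 comparisons.

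**Figure D4:**
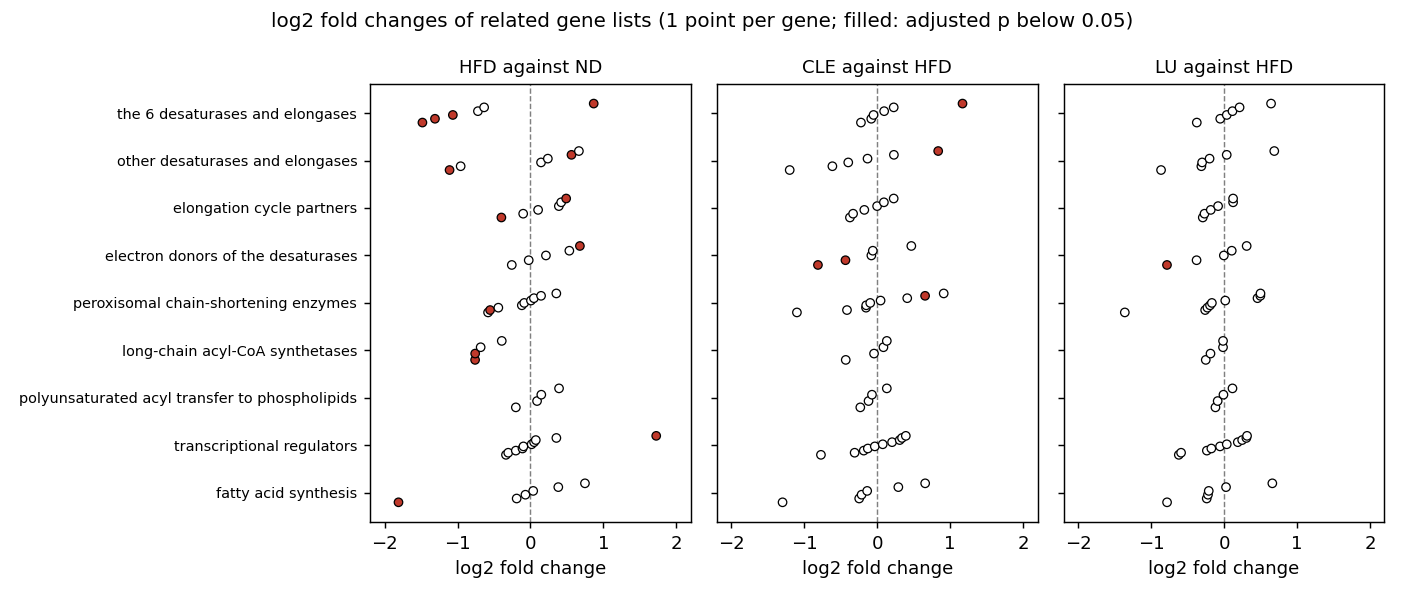
log2 fold change (horizontal axis) of every tested gene of the 6 desaturases and elongases and of 8 related lists (rows), 1 point per gene, filled where called, for HFD against ND (left), CLE against HFD (middle) and LU against HFD (right) (n = 3 livers a group). Filled points lie on both sides of 0 in the first panel, with Srebf1 farthest right (1.72) and Acacb farthest left (-1.81), and the third panel has 1 filled point, Cyb5b (-0.78).

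Elovl3 is known in mouse liver as a male-biased gene with a daily rhythm, and lists of both kinds were measured beside it. Of 7 male-biased liver genes, 6 were called lower in HFD against ND livers, where 2.11% of all tested genes were called lower. In CLE and in LU against HFD, 4 of the 7 (Cyp4a12b, Hsd3b5, Mup20 and Slco1a1) were called higher. Of all 11566 tested genes, 317 were called higher in CLE and 35 in LU against HFD. Slco1a1, an organic anion transporter gene, had 159, 172 and 150 FPKM in ND mice 2, 3 and 4, and 18.4, 11.4 and 17.9 FPKM in HFD mice 12, 15 and 18. It had 61.5, 38.2 and 95.2 FPKM in CLE mice 2, 4 and 11 and 81.1, 90.4 and 35.4 FPKM in LU mice 2, 3 and 8. The supplemented livers lay between the HFD and ND livers.

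The log2 fold change of Slco1a1 was -3.28 in HFD against ND, 1.90 in CLE against HFD and 1.97 in LU against HFD (adjusted p = 0.00011, 0.019 and 0.019, limma). Cyp4a12b, a fatty acid hydroxylase gene, was at -2.10, 2.03 and 1.85 (adjusted p = 4.8e-05, 0.00071 and 0.0014), Hsd3b5, a steroid dehydrogenase gene, at -5.19, 3.64 and 3.86 (adjusted p = 0.0019, 0.034 and 0.048) and Mup20, a major urinary protein gene with close copies that can share reads, at -0.89, 1.17 and 1.44 (adjusted p = 0.043, 0.033 and 0.025). Cyp7b1, an oxysterol hydroxylase gene, was lower in HFD against ND (119 ± 18.9 to 29.7 ± 4.03 FPKM, SD, n = 3, log2 fold change -1.96, adjusted p = 0.0049), and its values of 1.32 in CLE and 1.26 in LU against HFD did not pass (adjusted p = 0.051 and 0.11). Elovl3 in the same order was at -1.48, 1.17 and 0.64. CLE mouse 4 was the highest CLE liver in Elovl3 and the lowest in Slco1a1 and Cyp4a12b. LU mouse 8 was the lowest LU liver in both Elovl3 and Slco1a1. Whether Elovl3 and the male-biased genes share a cause was not tested. Of 15 clock genes, Ciart (1.22, adjusted p = 0.033) and Hlf (0.70, adjusted p = 0.022) were higher in HFD against ND, and none was called in CLE or LU against HFD. Against ND livers, 8 of the 15 clock genes were called higher and 2 lower in CLE livers, and likewise 8 higher and 2 lower in LU livers, where 27.0% and 14.9% of all tested genes were called. The 2 lower genes were Arntl and Clock, the core activators of the clock, in both comparisons (-1.01 and -0.87 in CLE, adjusted p = 0.016 and 0.0037, and -1.245 and -0.99 in LU, adjusted p = 0.012 and 0.0032, limma). Of the 6 members, 4 were called in CLE against ND, 5 in LU against ND and 4 in HFD against ND. In HFD against ND, 12.1% of all tested genes were called. Elovl3 was called in LU against ND (adjusted p = 0.029, limma) and not in CLE against ND (adjusted p = 0.30). The part of the daily rhythm in the values of Elovl3 and the other members was not tested.

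**Figure D5:**
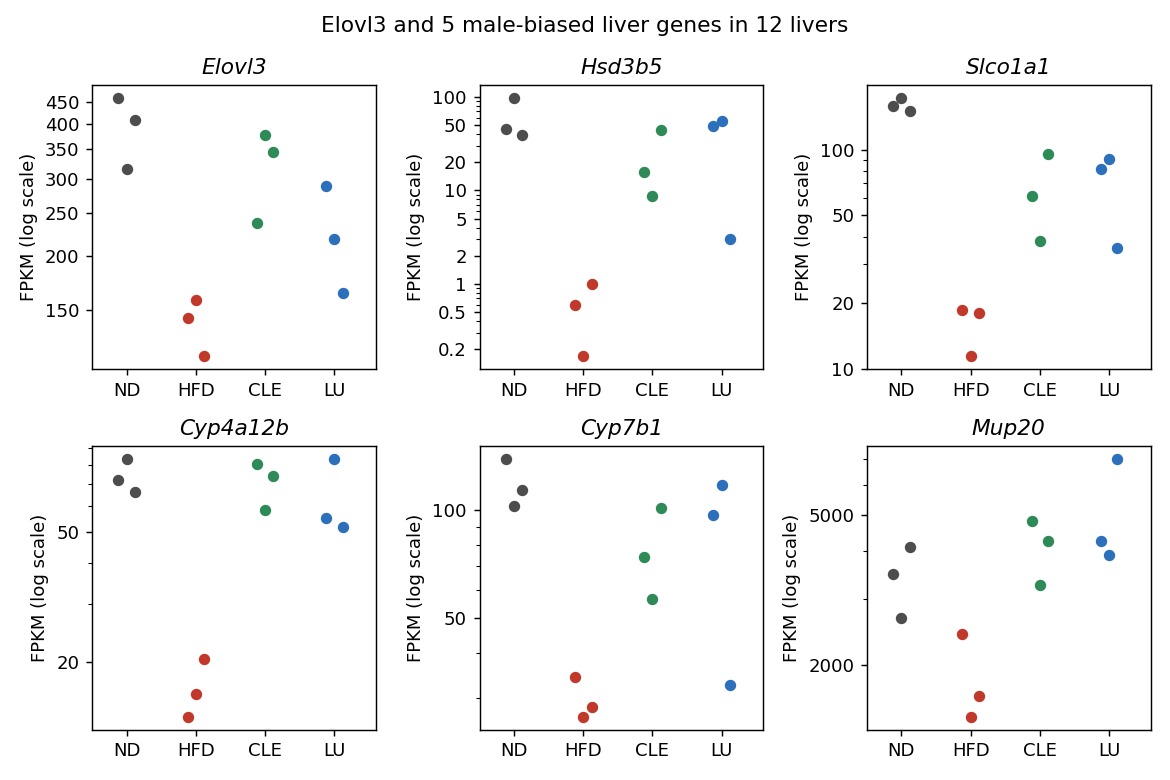
FPKM on a log scale (vertical axis) of Elovl3 and 5 male-biased genes in each of the 12 livers by diet group (horizontal axis), with 1 point per liver. In all 6 panels the 3 HFD livers lie below the 3 ND livers, and for Slco1a1 the CLE and LU livers (35.4 to 95.2 FPKM) lie between the HFD livers (11.4 to 18.4 FPKM) and the ND livers (150 to 172 FPKM).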

How the data were processed

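RNA of 12 mouse livers was sequenced (paired reads, 100 bases), and the authors deposited FPKM values of 152210 transcripts. Per the labels' processing notes and the methods, TopHat2 2.0.12 with Bowtie2 2.2.3 aligned the reads and Cufflinks 2.2.1 assembled and quantified transcripts. The build is not given in the sources used here, but 85.54% of the 78786 known transcripts have the coordinates of GENCODE M21 (GRCm38), which gave the loci. Whether the deposited FPKM include the authors' normalization factors is not stated. FPKM from Cufflinks are estimates shared among overlapping transcripts, so counts, depth and intervals for counting error cannot be recovered, and an exact 0 can be a failed estimate.

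FPKM were summed by the gene name of the table in each liver, and 6316 rows without a gene name (4.15%) were left out. Groups were taken from the sample labels. limma 3.58.1 in R 4.3.3 was fitted to log2(FPKM + 1) with the variance trend and 1 coefficient per group over all 12 livers (12.8 degrees of freedom), with Benjamini-Hochberg adjustment at 0.05 over 11566 genes. Fold changes on this scale understate changes of low genes. Exact permutation and Tukey tests used SciPy 1.17.1. All tests are two-sided, and the labels do not say more of the replicates than that they are separate mice. In simulated data for HFD against ND (11566 genes), calls were made for 19 of 50 genes with a set log2 change of 0.5. They were made for 49 of 50 at 1.0, 49 of 50 at 1.5, 50 of 50 at 2.0, and 7 of 11366 unchanged genes. The simulation drew independent normal noise for each gene and set changes in the HFD livers alone. It held no differences of scaling or GC content between libraries, so these shares check the fit and are not error rates of the real data.

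The members, gene lists and tests were chosen with earlier results of these data known. Named are the 6 members, from each other list up to 4 called genes per list by size of change in each of the comparisons of HFD with ND and of CLE and LU with HFD, and the 3 genes most correlated with each member that passed the F test. In addition, Cdc20 and Pitx3 were named for their overlap, and Pdgfrb and the markers and clock genes called only against ND after their values were seen. Alternatives were a pseudocount of 0.1, no filter, a minimum of 5 FPKM, median-of-ratios scaling, quantile normalization, no variance trend, the highest or only known transcripts, fits of 2 groups, a replicate block, Tukey's test and each mouse left out. Corrections for GC content and length, sums by M21 gene, Fads2 to Fads1 ratios from fewer Fads2 transcripts and a block for CLE against LU were added after seeing the data. Promoters came from RefSeq and were found for 4 of the 6 members. Plasma lipids were not analysed here.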

Additional observations from a re-analysis of the deposited data

How the results depend on the processing

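No called fold change of a member changed sign under any alternative. Of the member fold changes recomputed, 821 kept direction and side of the threshold, 70 lost the call, 19 gained one and 44 changed sign, none of them called either way. For CLE against HFD, the log2 fold change of Fads2 became -0.20 with the highest transcript and -0.20 with known transcripts only, and -0.023 with GC correction, and that of Elovl5 became 0.048 with GC correction and 0.055 with length and GC correction. For LU against HFD, Fads2 became -0.077 with the highest transcript and -0.077 with known transcripts, and Elovl5 became 0.0048, 0.083 and 0.076 with the highest transcript, GC correction, and length and GC correction. For CLE against LU, Elovl2 became -0.0305 with median-of-ratios scaling and -0.026 with length correction, Fads2 15.98 FPKM by the difference of means in Tukey's test, and with the replicate block Elovl3 became -0.051, Elovl5 0.27, Fads1 0.30 and Fads2 0.29. With a mouse left out, CLE against HFD ran from -0.32 to 0.11 (Elovl5), -0.29 to 0.21 (Fads1) and -0.15 to 0.43 (Fads2). LU against HFD ran from -0.22 to 0.061 (Elovl5), -0.17 to 0.23 (Fads1) and -0.0053 to 0.20 (Fads2). CLE against LU ran from -0.21 to 0.30 (Elovl2), -0.27 to 0.16 (Elovl5), -0.32 to 0.17 (Fads1) and -0.27 to 0.32 (Fads2). For CLE against HFD, the 1 called member became 0 with no filter on low values and 0 to 1 with a mouse left out. For CLE against ND, 4 became 2 with the transcript of the highest mean and 2 to 5 with a mouse left out. For LU against ND, 5 became 2 with no filter, 3 with quantile normalization, 2 with the highest transcript, 3 with known transcripts only, 3 by Tukey's test and 1 to 6 with a mouse left out. The cause was not tested. With a replicate block on the mouse numbers that ND, CLE and LU mice share, 0 members were called for CLE against ND and 0 for LU against ND. In all, 339 and 19 genes were called, against 2467 and 1145 in the same 9 livers without the block. The added block coefficients leave few of these livers to estimate the spread. CLE mouse 11 and LU mouse 8 share their number with no other of these livers. The loss of calls therefore cannot show whether the fold changes depend on the mouse numbers. Same-numbered mice correlated between -0.259 and 0.183, so the numbers were not taken as pairs, and HFD mice share no number with the others. Over all genes, the 1400 genes of HFD against ND became 645 with the highest transcript, 661 with known transcripts and 656 to 1663 with a mouse left out. The 698 of CLE against HFD became 127 with no filter, 91 in the fit of 2 groups, 263 with the highest transcript, 348 with GC correction, 1095 with quantile normalization, and 28 to 2190 with a mouse left out. The 119 of LU against HFD became 57 with no filter, 262 in the fit of 2 groups and 11 to 545 with a mouse left out. The 3119 of CLE against ND became 1809 in the fit of 2 groups, 2018 with GC correction and 1594 to 3681 with a mouse left out, and the 1727 of LU against ND became 640 to 2495. The block of CLE against LU called 0 members. Depth is unknown, so what it limits cannot be given.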
